A study of Mus musculus with 9 samples.

Results

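The 92 transporter genes described here are the protein-coding genes of the Slc10a, Slc22a, Slc47a, Slco and Slc51 families and of the Abca, Abcb, Abcc and Abcg families. They were taken by symbol from 34745 genes in the table. The families, and the roles used below, were chosen with earlier results of these data known. The members hold the carriers by which liver cells take up and release bile salts, drugs, conjugates, cations and lipids. A read was counted in 72 of them, 20 were at a count of 0 in every library, and 60 passed the filter on low counts and were tested. Messenger RNA was sequenced from livers of male C57BL/6 mice aged 6 to 8 weeks in 3 groups of 3 libraries. One group was control, another received D-gal/LPS, a model of acute liver injury in which the letters usually stand for D-galactosamine and lipopolysaccharide, and the last received WZB before D-gal/LPS. The labels do not expand the letters WZB, the series title and design text speak of GLUT1 inhibition, and the sources used here give no doses or times. Nothing states that the replicates are separate animals, so the p-values reflect the spread among these libraries, which may be technical. No labelled group received WZB alone, and rises and falls below are differences between groups, not changes followed over time.

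Hepatocytes are polarized: carriers on the sinusoidal side draw bile salts and other solutes from blood, and pumps on the canalicular side drive them into bile. A further set of pumps on the basolateral side returns solutes to blood and is known to be raised in cholestasis. In inflamed rodent liver, the uptake carriers Slc10a1 and the Slco1 family and the pumps Abcb11 and Abcc2 are classically described as lowered. In bulk tissue, fewer cells of a type and less RNA per cell cannot be told apart.

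Promoter windows, from 250 bases before to 50 after a transcript start, were matched by symbol in RefSeq (GRCm38.p6) for 75 of the 92 genes, in 86 windows. They are printed for members whose transcripts the results turn on: the leading uptake carriers, the neighbouring genes Slco1a1 and Slco1a4, and the bile salt pump Abcb11. Capitals mark AGGTCA on either strand (TGACCT when read on the other), the half-site read by many nuclear receptors. The windows lie at chr12:80968030-80968329 (minus strand), chr6:141629268-141629567 (plus strand), chr6:141946913-141947212 (minus strand), chr6:141856171-141856470 (minus strand) and chr2:69342567-69342866 (minus strand), all 5′ to 3′ along the transcript.
Slc10a1: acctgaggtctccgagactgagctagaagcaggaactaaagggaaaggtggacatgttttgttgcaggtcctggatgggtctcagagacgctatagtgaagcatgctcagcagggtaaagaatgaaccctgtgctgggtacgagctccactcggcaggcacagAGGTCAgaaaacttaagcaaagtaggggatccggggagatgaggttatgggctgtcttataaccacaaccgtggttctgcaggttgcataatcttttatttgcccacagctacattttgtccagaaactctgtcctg
Slco1b2: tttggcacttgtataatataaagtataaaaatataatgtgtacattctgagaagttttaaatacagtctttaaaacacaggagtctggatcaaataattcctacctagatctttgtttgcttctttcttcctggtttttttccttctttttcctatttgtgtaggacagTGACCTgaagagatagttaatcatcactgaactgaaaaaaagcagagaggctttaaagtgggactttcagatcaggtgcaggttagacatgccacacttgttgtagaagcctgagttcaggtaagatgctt
Slco1a1: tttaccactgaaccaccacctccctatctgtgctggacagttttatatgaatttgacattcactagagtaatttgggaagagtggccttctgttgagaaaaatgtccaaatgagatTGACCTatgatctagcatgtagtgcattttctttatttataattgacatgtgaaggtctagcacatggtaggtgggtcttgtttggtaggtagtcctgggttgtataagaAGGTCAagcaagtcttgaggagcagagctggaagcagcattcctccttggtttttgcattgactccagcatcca
Slco1a4: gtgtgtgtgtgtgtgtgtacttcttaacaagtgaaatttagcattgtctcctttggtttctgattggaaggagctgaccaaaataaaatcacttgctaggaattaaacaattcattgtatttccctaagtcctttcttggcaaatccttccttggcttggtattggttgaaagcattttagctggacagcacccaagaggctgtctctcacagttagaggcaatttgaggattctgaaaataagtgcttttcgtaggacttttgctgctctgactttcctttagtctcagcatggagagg
Abcb11: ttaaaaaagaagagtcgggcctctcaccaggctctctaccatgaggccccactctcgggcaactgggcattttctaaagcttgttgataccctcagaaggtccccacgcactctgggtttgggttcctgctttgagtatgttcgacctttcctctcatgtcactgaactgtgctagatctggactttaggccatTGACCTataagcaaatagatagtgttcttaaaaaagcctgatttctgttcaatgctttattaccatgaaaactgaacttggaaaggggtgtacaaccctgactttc
The half-site stood in 17.4% of the members' windows and in 16.3% of all 32851 promoter windows of the reference. Slc10a1 has a second window in the reference, at chr12:80968656-80968955, not printed here. That window and the window of Slco1a4 hold no AGGTCA, which says only that these letters are not there. The other motifs searched on both strands were GTTAAT, in 5.81% of members' windows against 7.1% of all, and an NF-kB motif, in 25.6% against 20.7%.

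The pair Abcg5 and Abcg8, whose proteins join to pump sterols into bile, is shown separately because the genes start beside each other on opposite strands. The Abcg8 window at chr17:84682871-84683170 (plus strand) shares 209 bases, in capitals, with the Abcg5 window on the minus strand. A second Abcg8 window of the reference, at chr17:84676052-84676351, is not printed here.
Abcg8: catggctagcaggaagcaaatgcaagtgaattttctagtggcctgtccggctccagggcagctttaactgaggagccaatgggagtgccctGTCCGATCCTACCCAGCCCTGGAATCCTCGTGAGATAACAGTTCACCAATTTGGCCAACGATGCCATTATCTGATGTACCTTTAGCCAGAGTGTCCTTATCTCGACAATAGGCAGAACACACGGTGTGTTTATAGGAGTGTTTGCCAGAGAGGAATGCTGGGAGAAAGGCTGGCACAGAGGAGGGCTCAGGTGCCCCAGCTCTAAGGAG
The deposited gene bodies also overlap, Abcg5 at chr17:84658234-84683011 and Abcg8 at chr17:84676302-84700333 (GRCm38). The sources used here do not give the strandedness of the libraries, so reads in the overlap cannot be assigned to one of the genes with certainty.

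Total counts ran from 15072509 to 18106895 reads per library, of which the transporter genes took 0.411% to 0.604%. Levels below are CPM, read counts over the TMM-scaled library size, unless FPKM, fragments scaled by gene length and depth, is named. The liver label was checked with 8 hepatocyte markers, which summed to 94305–94443 CPM in control, 112292–116059 after D-gal/LPS and 142287–153193 with WZB. Markers of other cells moved as well. The 8 neutrophil markers summed to 5.60–6.09 CPM in the control group, 352–376 in the D-gal/LPS group and 246–271 in the WZB group, and 6 red blood cell genes to 110–140, 3584–4471 and 422–713 CPM. Transcripts of mitochondrial genes took 17.2% to 20.3% of reads in control, 14.7% to 15.5% after D-gal/LPS and 13.4% to 14.4% with WZB.

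After D-gal/LPS, 31 of the 60 tested transporter genes rose and 12 fell against control (edgeR quasi-likelihood test, with Benjamini-Hochberg (BH) adjusted p under 0.05 over 13583 genes). Of all tested genes, 29.1% rose and 29.3% fell. The median log2 fold change of the transporter genes was 0.32, against -0.03 over all genes. With WZB against D-gal/LPS alone, 22 transporter genes rose and 8 fell, where 13.8% of all genes rose and 14.7% fell, and the medians were 0.23 and -0.02. Against control, livers given WZB and D-gal/LPS held 38 higher and 6 lower transporter genes, where 32.6% of all genes were higher and 28.0% lower, and the medians were 0.73 and 0.07. By libraries that did not overlap, 31 transporter genes lay above and 11 below control after D-gal/LPS, where 32.4% and 33.1% of all genes did, and 26 above and 10 below D-gal/LPS with WZB, where 21.3% and 24.0% did. Against control, WZB libraries lay above in 40 and below in 9, where 35.0% and 30.9% did. The 3 comparisons share libraries, so their values stand side by side and are not independent of one another. The WZB libraries had TMM factors of 0.872 to 0.924, below the 1.003 to 1.101 of the others. Scaling by total counts alone moved the median of all genes by -0.20 against D-gal/LPS and -0.25 against control, and the all-gene split against D-gal/LPS became 850 higher and 3290 lower, from 1873 and 2001. Upper quartile scaling moved the higher share of those calls from 48.3% to 58.9%, and total counts moved the higher share against control from 53.8% to 39.1%. With total counts, 16 transporter genes still rose and 11 fell with WZB against D-gal/LPS, and the rises of Abca3, Abcb6, Abcc3, Slc22a5, Slc22a27 and Slc22a28 were not called (edgeR, BH-adjusted p 0.0521 to 0.253). The filter asked for about 0.653 CPM in at least 3 libraries. By group mean of CPM, 53 of the tested members reached this level in every group. Abcb9 and Slc10a6 reached it in 2 groups, and Abca4, Abcc12, Slc22a21, Slc22a27 and Slco4a1 in 1 group. A member that reached it in only some groups had to be higher there, so counts over the tested members are descriptions.

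**Figure D1:**
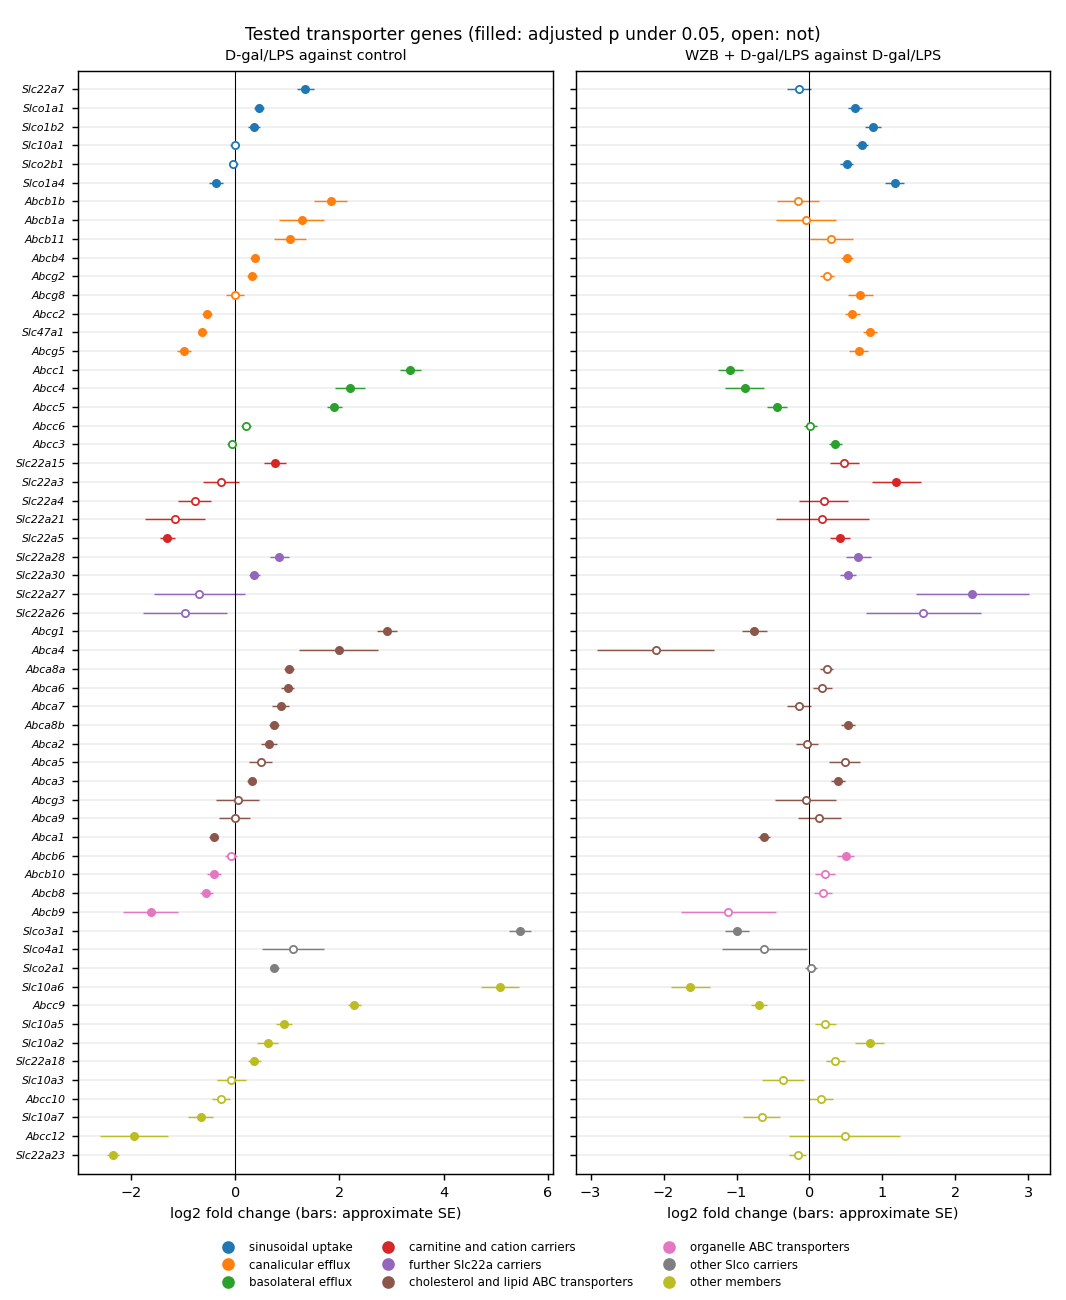
Log2 fold changes of tested transporter genes, ordered and coloured by role, for D-gal/LPS against control (left) and for WZB before D-gal/LPS against D-gal/LPS alone (right), with different horizontal scales. Points are fold changes, bars approximate standard errors, and filled points pass an edgeR, BH-adjusted p of 0.05, as Slc10a1, Slco1b2, Slco1a1, Slco1a4 and Slco2b1 do upward on the right.

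By deposited FPKM, which can be compared between genes, the bile salt carrier Slc10a1 led the control livers at 265 ± 6.17 FPKM (SD, n = 3). The organic anion carrier Slco1b2 stood at 83.9 ± 6.51. The conjugate pump Abcc2 ranked 4 in control livers at 53.4 ± 1.28 and 6 after D-gal/LPS at 35.2 ± 4.41. The bile salt pump Abcb11 ranked 6 at 36.0 ± 11.8 and 4 at 72.0 ± 4.89 FPKM, with uneven control libraries.

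Summed by role, the 7 sinusoidal uptake carriers stood at 511–535 FPKM in control, 510–635 after D-gal/LPS and 781–818 with WZB. The 9 canalicular pumps stood at 146–172, 153–180 and 178–219 FPKM. The basolateral pumps stood at 49.0–54.1, 52.3–57.7 and 49.9–54.7 FPKM. The uptake sum in the WZB libraries lay above every other library, whereas the basolateral sums overlapped in the 3 groups. Abcc6 at 27.2 ± 3.01 FPKM and Abcc3 at 22.6 ± 1.22 FPKM made up most of the basolateral sum in control livers, so it says little of Abcc1, Abcc4 and Abcc5, described one by one further on. FPKM values are scaled by depth alone and take no account of the lower TMM factors of the WZB libraries.

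**Figure D2:**
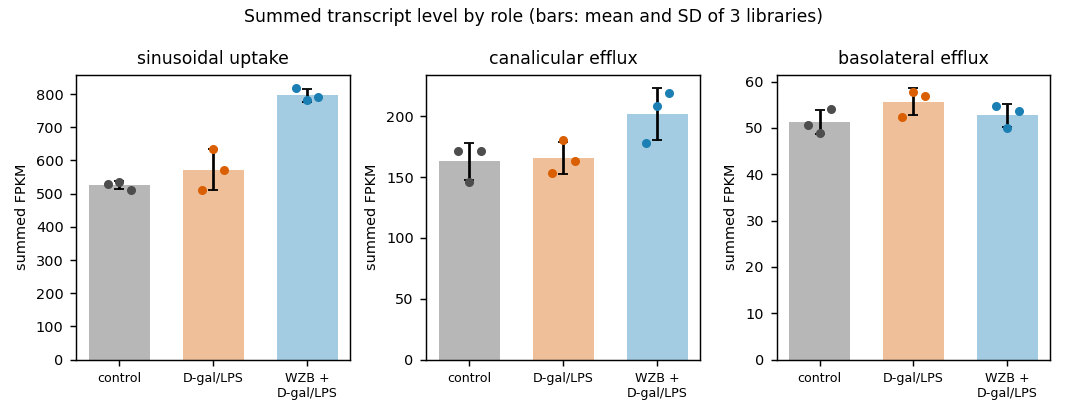
Summed FPKM of the members of each main role in each of the 9 libraries. Points are libraries, bars group means and error bars SD, with the uptake sums of the WZB libraries at 781 to 818 above the 510 to 635 of the D-gal/LPS libraries.

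Of the 7 sinusoidal uptake carriers, 4 were higher and 1 lower after D-gal/LPS than in control, and 6 were higher with WZB than after D-gal/LPS alone. Against control, all 7 were higher with WZB. Shares of all tested genes were 29.1% higher and 29.3% lower after D-gal/LPS. With WZB, 13.8% were higher than after D-gal/LPS alone and 32.6% higher than in control. The bile salt carrier Slc10a1 stood at 409, 414 and 418 CPM in the control group, 375, 459 and 399.8 in the D-gal/LPS group and 713, 661 and 654 in the WZB group. Control and D-gal/LPS libraries overlapped, and every WZB library lay above them. Slc10a1 differed from control by -0.0073 ± 0.08 on the log2 scale after D-gal/LPS (edgeR, BH-adjusted p = 0.947) and rose by 0.72 ± 0.09 with WZB against D-gal/LPS (edgeR, BH-adjusted p = 6.26e-05). Slco1b2, which takes up organic anions without sodium, stood at 512, 442 and 444 CPM in the control group, 508, 699 and 591 in the D-gal/LPS group and 1028, 1116 and 1131 in the WZB group. 1 D-gal/LPS library lay within the control range and the WZB libraries were highest. Its rise was 0.36 ± 0.11 after D-gal/LPS (edgeR, BH-adjusted p = 0.0113) and 0.87 ± 0.11 with WZB (edgeR, BH-adjusted p = 9.59e-05).

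Slco1a1 and Slco1a4, neighbours on chromosome 6 that carry bile salts, steroid conjugates and other organic anions, moved oppositely after D-gal/LPS. Slco1a1 stood at 282, 258 and 238 CPM in the control group, 309.7, 401 and 356 in the D-gal/LPS group and 527, 567 and 551 in the WZB group. The groups stood in rising order without overlap, by 0.46 ± 0.10 and then 0.62 ± 0.10 on the log2 scale (edgeR, BH-adjusted p = 0.00135 and 0.000459). Slco1a4 stood at 51.2, 40.2 and 45.6 CPM in the control group, 32.1, 30.8 and 43.1 in the D-gal/LPS group and 75.9, 81.4 and 81.6 in the WZB group. It fell by 0.37 ± 0.13 after D-gal/LPS, with 1 library inside the control range (edgeR, BH-adjusted p = 0.0252), and rose by 1.17 ± 0.13 with WZB (edgeR, BH-adjusted p = 4.01e-05). The fall was not called without control replicate 1, control replicate 3, D-gal/LPS replicate 1 or D-gal/LPS replicate 2 (adjusted p 0.0545 to 0.125). As paralogs in 1 cluster, these genes may share reads to a degree that the deposited counts do not show.

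Slco2b1, which carries steroid sulfates, stood at 109, 106 and 102 CPM in the control group, 94.6, 112 and 102 in the D-gal/LPS group and 155, 151 and 134 in the WZB group. D-gal/LPS libraries overlapped control ones, and WZB libraries were higher than D-gal/LPS libraries by 0.51 ± 0.09 (edgeR, BH-adjusted p = 0.000728). Slc22a7, an organic anion carrier, was the uptake gene with another pattern, at 12.4, 12.6 and 12.7 CPM in the control group, 27.2, 38.9 and 30.1 in the D-gal/LPS group and 24.98, 37.0 and 25.4 in the WZB group. It rose by 1.35 ± 0.17 after D-gal/LPS (edgeR, BH-adjusted p = 1.64e-05) and stood at -0.14 ± 0.16 with WZB against D-gal/LPS (edgeR, BH-adjusted p = 0.578). Of the 8 hepatocyte markers, 2 rose and 1 fell after D-gal/LPS, 5 rose with WZB against D-gal/LPS, and their median fold changes were 0.21 and 0.37. Against control, 5 of these markers were higher and 1 lower with WZB, with a median of 0.66. Their part in the rise of the uptake genes was not tested.

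**Figure D3:**
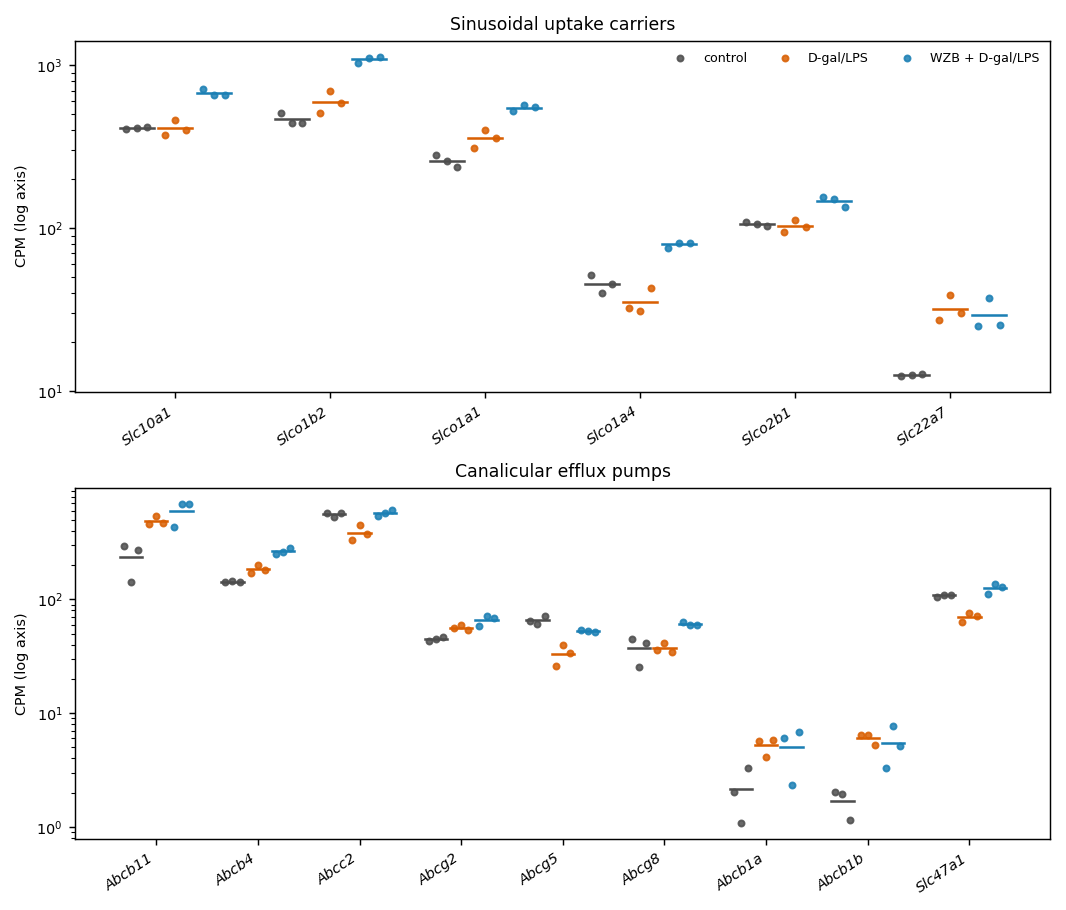
CPM on a log axis for sinusoidal uptake carriers and canalicular pumps in each of the 9 libraries. Points are libraries and bars group means, and the WZB libraries of Slc10a1 stand at 654 to 713 CPM above all others.

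Of the 9 canalicular pumps, 5 were higher and 3 lower after D-gal/LPS, and with WZB 5 rose and none fell against D-gal/LPS. Over all tested genes, 29.1% were higher and 29.3% lower after D-gal/LPS, and 13.8% rose and 14.7% fell with WZB. The bile salt export pump Abcb11 stood at 294, 144 and 271 CPM in the control group, 458, 543 and 469.7 in the D-gal/LPS group and 434, 692 and 684 in the WZB group. Control library 2 was lowest and every D-gal/LPS library lay above the controls. The rise was 1.05 ± 0.30 on the log2 scale (edgeR, BH-adjusted p = 0.0206) and was not called without D-gal/LPS replicate 2 (adjusted p = 0.0642). WZB libraries overlapped D-gal/LPS ones, at 0.30 ± 0.30 (edgeR, BH-adjusted p = 0.513). Abcb4, which flips phosphatidylcholine into bile, stood at 141, 144 and 142 CPM in the control group, 170.2, 202 and 182 in the D-gal/LPS group and 252, 259 and 281 in the WZB group. Its groups stood in rising order without overlap, by 0.37 ± 0.08 and 0.52 ± 0.08 (edgeR, BH-adjusted p = 0.00126 and 0.000413).

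Abcc2, the pump for bilirubin and glutathione conjugates, was lower after D-gal/LPS than in control or with WZB. It stood at 572, 532 and 577 CPM in the control group, 334, 448 and 374 in the D-gal/LPS group and 542, 579.6 and 616 in the WZB group. D-gal/LPS libraries lay below both other groups, and control and WZB libraries overlapped. Abcc2 differed from control by -0.54 ± 0.10 after D-gal/LPS (edgeR, BH-adjusted p = 0.000476). With WZB it was higher than after D-gal/LPS alone, by 0.59 ± 0.10 (edgeR, BH-adjusted p = 0.000864). The difference of WZB livers from control was 0.048 ± 0.10 (edgeR, BH-adjusted p = 0.699). Slc47a1, which extrudes organic cations in exchange for protons, was also lowest after D-gal/LPS. Levels were 106, 109 and 110.3 CPM in the control group and 63.3, 75.7 and 71.5 in the D-gal/LPS group. The WZB group stood at 112, 135 and 128. Slc47a1 fell by 0.63 ± 0.09 after D-gal/LPS (edgeR, BH-adjusted p = 6.32e-05). It was higher by 0.83 ± 0.09 with WZB than after D-gal/LPS alone (edgeR, BH-adjusted p = 4.1e-05). Abcg2, a pump for sulfates and many drugs, stood at 43.4, 44.5 and 46.8 CPM in the control group, 55.5, 59.4 and 53.5 in the D-gal/LPS group and 58.6, 72.0 and 68.4 in the WZB group, a rise of 0.32 ± 0.10 after D-gal/LPS (edgeR, BH-adjusted p = 0.0107) and a difference of 0.24 ± 0.10 between WZB and D-gal/LPS (edgeR, BH-adjusted p = 0.079). That difference passed with upper quartile factors or without WZB + D-gal/LPS replicate 1 (adjusted p = 0.025 and 0.0262).

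Of the sterol pump subunits, Abcg5 passed the test after D-gal/LPS and Abcg8 did not, and the difference between them was not tested. Abcg5 stood at 64.7, 60.7 and 71.4 CPM in the control group, 26.1, 39.8 and 33.7 in the D-gal/LPS group and 54.0, 53.0 and 52.2 in the WZB group. It lay below every control library, at a change of -0.98 ± 0.13 (edgeR, BH-adjusted p = 2.4e-05) and rose by 0.68 ± 0.13 with WZB (edgeR, BH-adjusted p = 0.00185). Abcg8 stood at 45.0, 25.7 and 41.3 CPM in the control group, 35.6, 41.7 and 34.8 in the D-gal/LPS group and 63.0, 59.2 and 59.8 in the WZB group. Control and D-gal/LPS libraries overlapped, with control library 2 lowest, at a difference of 0.0017 ± 0.17 (edgeR, BH-adjusted p = 0.994). WZB libraries were higher by 0.70 ± 0.17 (edgeR, BH-adjusted p = 0.011), a call not made without D-gal/LPS replicate 1 (adjusted p = 0.0511). The FPKM ratio of Abcg5 to Abcg8 was 2.17, 3.57 and 2.61 in the control group, 1.11, 1.44 and 1.46 in the D-gal/LPS group and 1.29, 1.35 and 1.32 in the WZB group, so control libraries lay above all others. This ratio was chosen after its values were seen and carries no test, and neither does that of Slco1a1 to Slco1a4, at 5.20, 6.07 and 4.93, then 9.10, 12.3 and 7.81, then 6.38 to 6.58.

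**Figure D4:**
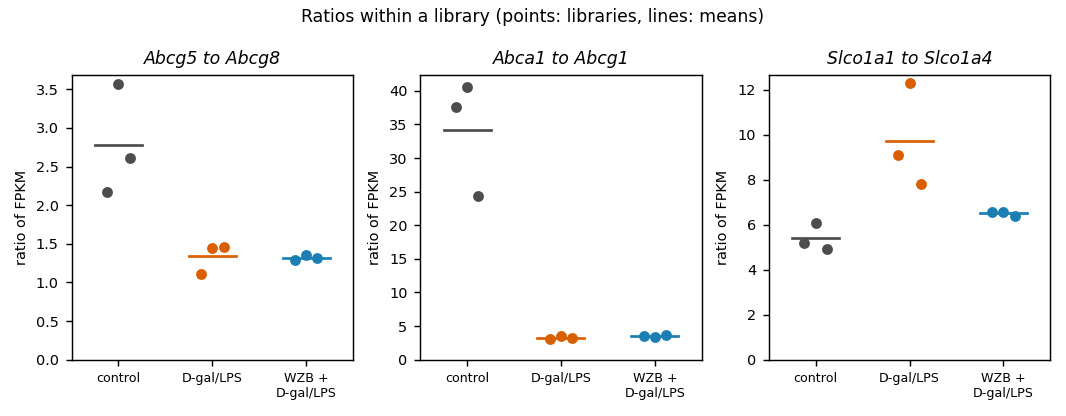
Ratios of deposited FPKM within a library for pairs of transporter genes, 1 point per library and a line at each group mean. The Abcg5 to Abcg8 ratio stands at 2.17 to 3.57 in control libraries and at 1.11 to 1.46 in the others.

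Both P-glycoprotein genes, multidrug pumps that occur on the canalicular membrane and also in endothelium, rose after D-gal/LPS. Abcb1a stood at 2.03, 1.09 and 3.28 CPM in the control group, 5.66, 4.15 and 5.84 in the D-gal/LPS group and 6.01, 2.34 and 6.76 in the WZB group. Abcb1b stood at 2.03, 1.93 and 1.15 CPM in the control group, 6.47, 6.39 and 5.25 in the D-gal/LPS group and 3.33, 7.76 and 5.16 in the WZB group. The rises were 1.28 ± 0.43 and 1.83 ± 0.31 (edgeR, BH-adjusted p = 0.0256 and 0.000217), and WZB libraries overlapped D-gal/LPS libraries for both. The Abcb1a call was lost without control replicate 1, control replicate 2, D-gal/LPS replicate 1 or D-gal/LPS replicate 3 (adjusted p 0.067 to 0.0788), and reads of these close paralogs may not be fully separated.

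Of the 5 tested basolateral pumps for export to blood, 3 rose after D-gal/LPS, and with WZB 1 rose and 3 fell. Over all tested genes, 29.1% rose after D-gal/LPS, and with WZB 13.8% rose and 14.7% fell. Abcc1, a pump for glutathione conjugates and leukotriene C4, stood at 1.29, 1.63 and 1.72 CPM in the control group, 17.6, 15.8 and 14.7 in the D-gal/LPS group and 6.09, 9.19 and 7.43 in the WZB group. Every D-gal/LPS library lay above the controls and the WZB libraries lay between. It rose by 3.36 ± 0.20 (edgeR, BH-adjusted p = 1.03e-08) and fell by 1.08 ± 0.18 with WZB (edgeR, BH-adjusted p = 0.000557). Abcc4, which exports cyclic nucleotides and bile salts, stood at 1.35, 0.784 and 1.62 CPM in the control group, 5.43, 6.13 and 5.96 in the D-gal/LPS group and 3.47, 2.26 and 3.69 in the WZB group. The rise was 2.21 ± 0.29 (edgeR, BH-adjusted p = 1.94e-05) and the change with WZB -0.89 ± 0.26 (edgeR, BH-adjusted p = 0.023), not called without D-gal/LPS replicate 3 or WZB + D-gal/LPS replicate 2 (adjusted p 0.0696 to 0.0899). Abcc5, a pump for cyclic nucleotides, stood at 6.09, 5.13 and 6.98 CPM in the control group, 22.7, 20.8 and 24.6 in the D-gal/LPS group and 16.7, 15.7 and 17.5 in the WZB group, with a rise of 1.90 ± 0.14 (edgeR, BH-adjusted p = 8.51e-08). With WZB it fell by 0.45 ± 0.13 (edgeR, BH-adjusted p = 0.0232), a call lost without D-gal/LPS replicate 1, D-gal/LPS replicate 3, WZB + D-gal/LPS replicate 1 or WZB + D-gal/LPS replicate 2 (adjusted p 0.0517 to 0.103).

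Abcc3, the main basolateral pump for glucuronides, stood at 165, 145 and 151 CPM in the control group, 136, 159 and 147 in the D-gal/LPS group and 193, 174 and 198 in the WZB group. Control and D-gal/LPS libraries overlapped (edgeR, BH-adjusted p = 0.562) and it rose by 0.35 ± 0.09 with WZB (edgeR, BH-adjusted p = 0.00739), a call lost when libraries were scaled by total counts (adjusted p = 0.162). Abcc6, which mediates release of ATP, stood at 151, 142 and 179.9 CPM in the control group, 168, 196 and 185 in the D-gal/LPS group and 183, 188 and 182 in the WZB group. Its differences were 0.21 ± 0.09 after D-gal/LPS and 0.23 ± 0.09 for WZB against control (edgeR, BH-adjusted p = 0.0639 and 0.0502). Both missed the threshold narrowly. The first passed with DESeq2 size factors, with a filter of 5 CPM, and without control replicate 3 or D-gal/LPS replicate 1 (adjusted p 0.0104 to 0.0361). The second passed with upper quartile factors, with no filter, and without the same libraries (adjusted p 0.00822 to 0.0498). The bile salt exporter Slc51a and Slc51b, induced in rodent cholestasis, was not tested. Slc51a had a count of 0 in all 9 libraries, and Slc51b had counts of 0, 11 and 6 in the control group, 6, 7 and 10 in the D-gal/LPS group and 10, 8 and 5 in the WZB group. A count of 0 in a library allows up to 3 counts, for counting error only.

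**Figure D5:**
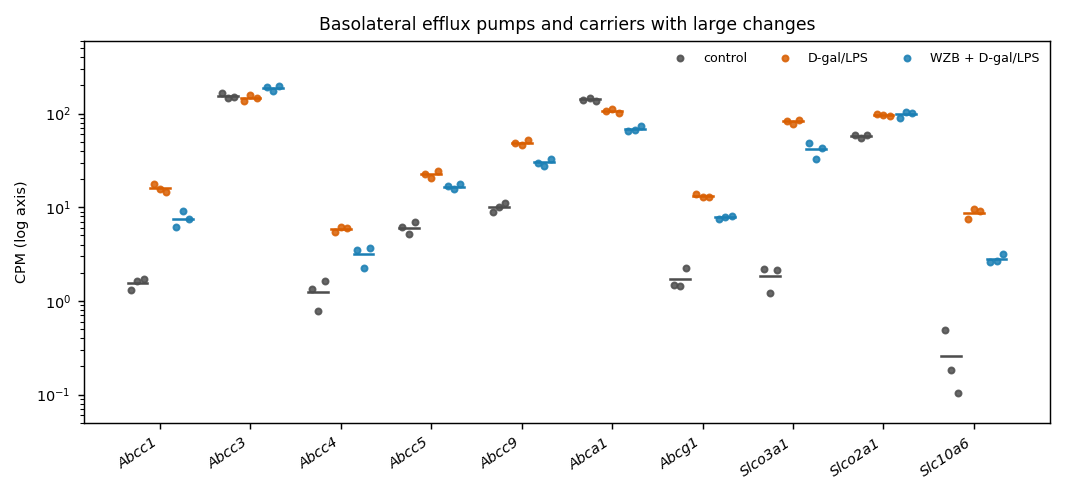
CPM on a log axis for the basolateral pumps and further members in each of the 9 libraries. Points are libraries and bars group means, and Slco3a1 stands at 1.21 to 2.21 CPM in control and 76.9 to 86.4 CPM after D-gal/LPS.

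The largest rise among the tested transporter genes after D-gal/LPS was that of Slco3a1, at chr7:74275419-74554780, a carrier of prostaglandins and thyroxine. Slco3a1 stood at 2.21, 1.21 and 2.14 CPM in the control group, 84.0, 76.9 and 86.4 in the D-gal/LPS group and 48.3, 32.6 and 43.4 in the WZB group. Each group stood apart, the WZB libraries between the others. It rose by 5.47 ± 0.21 (edgeR, BH-adjusted p = 9.72e-10) and fell by 0.99 ± 0.17 with WZB (edgeR, BH-adjusted p = 0.00105). Slc10a6, which carries sulfated steroids, stood at 0.492, 0.181 and 0.104 CPM in the control group, 7.57, 9.62 and 9.15 in the D-gal/LPS group and 2.62, 2.64 and 3.19 in the WZB group. It rose by 5.08 ± 0.36 (edgeR, BH-adjusted p = 5.14e-08) and fell by 1.63 ± 0.27 with WZB (edgeR, BH-adjusted p = 0.000561). Its mean reached the filter level in the D-gal/LPS and WZB groups only, so its direction against control was favoured by the filter. Abcc9, the regulatory subunit of an ATP-sensitive potassium channel rather than a pump, stood at 8.86, 10.1 and 11.1 CPM in the control group, 48.1, 46.6 and 52.1 in the D-gal/LPS group and 29.9, 27.9 and 32.9 in the WZB group. It rose by 2.29 ± 0.12 (edgeR, BH-adjusted p = 2.16e-09) and fell by 0.69 ± 0.11 with WZB (edgeR, BH-adjusted p = 0.000519).

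Markers of other liver cells also differed between the groups. The 8 stellate cell markers summed to 114–117 CPM in control, 1121–1204 after D-gal/LPS and 625–717 with WZB, with 8 of 8 higher after D-gal/LPS and 5 of 8 lower and 2 higher with WZB. The 8 endothelial markers summed to 97.9–109 CPM, 465–493 and 241–291, with 6 of 8 higher and 1 lower after D-gal/LPS, and 5 of 8 lower and 1 higher with WZB. The 8 monocyte and macrophage markers, in 9 rows of the table, summed to 45.3–52.2, 299–315 and 180–209 CPM, with 9 of 9 rows higher and 6 lower. The 6 Kupffer cell markers summed to 83.3–90.2, 315–364 and 168–231 CPM, with 5 of 6 higher and 5 lower, and no marker in these lists was at 0 in all control libraries. The 8 cholangiocyte markers, 1 of them at 0 in control, summed to 78.8–92.8, 164–234 and 176–254 CPM. Of the 7 tested, 6 were higher after D-gal/LPS, and none was called with WZB against D-gal/LPS. Whether such cells contribute to the levels of Slco3a1, Slc10a6, Abcc9, Abcc1, Abcc4, Abcc5 and Abcg1 was not tested. Slco2a1, the prostaglandin carrier, had overlapping D-gal/LPS and WZB libraries, at 58.8, 54.7 and 59.3 CPM in the control group, 97.9, 97.7 and 95.4 in the D-gal/LPS group and 88.8, 103 and 102 in the WZB group. It rose by 0.75 ± 0.08 (edgeR, BH-adjusted p = 4.43e-06) and differed by 0.016 ± 0.08 with WZB (edgeR, BH-adjusted p = 0.914).

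Of the 12 tested ABC transporters of cholesterol and lipids, 8 rose and 1 fell after D-gal/LPS. With WZB against D-gal/LPS, 2 rose and 2 fell. Over all tested genes, 29.1% rose and 29.3% fell after D-gal/LPS, and 13.8% and 14.7% did with WZB. Abca1, which loads cholesterol on to apolipoprotein A-I, was lower after D-gal/LPS than in control, and lower still with WZB. Levels were 139.8, 148 and 138 CPM in the control group and 105, 112 and 102 in the D-gal/LPS group. The WZB group stood at 65.9, 67.2 and 73.8. Abca1 fell by 0.41 ± 0.08 after D-gal/LPS (edgeR, BH-adjusted p = 0.000486). It was lower by 0.62 ± 0.08 with WZB than after D-gal/LPS alone (edgeR, BH-adjusted p = 9.74e-05). Abcg1, which moves cholesterol to mature HDL and is abundant in macrophages, stood at 1.48, 1.45 and 2.24 CPM in the control group, 13.9, 12.9 and 12.8 in the D-gal/LPS group and 7.57, 7.84 and 8.05 in the WZB group. It rose by 2.92 ± 0.19 (edgeR, BH-adjusted p = 2.34e-08) and fell by 0.75 ± 0.17 with WZB (edgeR, BH-adjusted p = 0.00477). The FPKM ratio of Abca1 to Abcg1, chosen after its values were seen, was 37.7, 40.5 and 24.4 in the control group, 3.01 to 3.45 in the D-gal/LPS group and 3.41 to 3.65 in the WZB group.

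The Abca8a, Abca8b and Abca6 genes of the Abca cluster on chromosome 11, transporters with no settled substrate, each rose after D-gal/LPS, and Abca5 and Abca9 of the same cluster did not pass the test. Abca8a stood at 50.5, 43.9 and 49.5 CPM in the control group, 87.2, 103 and 104 in the D-gal/LPS group and 115, 115 and 117 in the WZB group, and Abca8b at 59.4, 53.4 and 56.8 CPM in the control group, 86.4, 107 and 92.2 in the D-gal/LPS group and 129.8, 147 and 136 in the WZB group. Control libraries lay below all others. The rises were 1.03 ± 0.09 and 0.75 ± 0.09 (edgeR, BH-adjusted p = 4.88e-07 and 1.45e-05). Abca8b was higher with WZB than after D-gal/LPS alone, by 0.53 ± 0.09 (edgeR, BH-adjusted p = 0.00105). For Abca8a that difference was 0.24 ± 0.09 (edgeR, BH-adjusted p = 0.0638), and it passed with upper quartile factors (adjusted p = 0.0192). Abca6 rose by 1.01 ± 0.13 after D-gal/LPS (edgeR, BH-adjusted p = 3.0e-05). Abca5 stood at 3.44, 3.86 and 2.61 CPM in the control group, 4.33, 5.34 and 4.25 in the D-gal/LPS group and 5.38, 7.38 and 6.70 in the WZB group, a difference of 0.49 ± 0.22 after D-gal/LPS (edgeR, BH-adjusted p = 0.0705) that passed with a filter of 5 CPM or without control replicate 2 (adjusted p = 0.0492 and 0.0443). Abca9 ranged from 1.57 to 2.40 CPM over all libraries. Abca3, best known from lamellar bodies of lung, stood at 42.7, 51.0 and 49.98 CPM in the control group, 57.0, 62.9 and 59.0 in the D-gal/LPS group and 82.7, 74.9 and 76.2 in the WZB group, a rise of 0.32 ± 0.09 and then 0.39 ± 0.09 (edgeR, BH-adjusted p = 0.0106 and 0.00746).

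Of the 5 tested carriers for carnitine and cations, 1 rose and 1 fell after D-gal/LPS, and 2 rose with WZB. Among all tested genes, 29.1% rose and 29.3% fell after D-gal/LPS, and 13.8% rose with WZB. Slc22a5, the carnitine carrier, stood at 21.4, 17.0 and 19.8 CPM in the control group, 8.49, 7.71 and 7.44 in the D-gal/LPS group and 10.3, 10.2 and 11.1 in the WZB group. D-gal/LPS libraries were lowest without overlap, at a change of -1.30 ± 0.14 (edgeR, BH-adjusted p = 2.56e-06). With WZB it rose by 0.42 ± 0.14 (edgeR, BH-adjusted p = 0.0367). This call was lost when any 1 library of the D-gal/LPS or WZB group was left out (adjusted p 0.0511 to 0.179). It was also lost with DESeq2, DESeq2 size factors, total counts, no filter and a filter of 5 CPM (adjusted p 0.058 to 0.253). Slc22a3, a low-affinity cation carrier, stood at 2.34, 0.965 and 1.77 CPM in the control group, 1.16, 1.45 and 1.59 in the D-gal/LPS group and 3.26, 3.54 and 2.83 in the WZB group and rose by 1.19 ± 0.33 with WZB (edgeR, BH-adjusted p = 0.0164), a call lost without D-gal/LPS replicate 1, D-gal/LPS replicate 2 or WZB + D-gal/LPS replicate 2 (adjusted p 0.0531 to 0.0681). Slc22a15 rose by 0.77 ± 0.21 after D-gal/LPS (edgeR, BH-adjusted p = 0.0057) from 4.99 ± 1.66 CPM.

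The strongest fall after D-gal/LPS among the tested transporter genes was that of Slc22a23, an orphan carrier, at 65.1, 59.8 and 65.6 CPM in the control group, 14.2, 11.9 and 11.4 in the D-gal/LPS group and 12.3, 10.3 and 10.9 in the WZB group. Both treated groups lay below every control library and overlapped each other. The change was -2.34 ± 0.12 after D-gal/LPS (edgeR, BH-adjusted p = 1.63e-09). The difference of WZB from D-gal/LPS was -0.16 ± 0.12 (edgeR, BH-adjusted p = 0.345). Slc22a30, of a mouse gene cluster of organic anion carriers on chromosome 19, stood at 127, 136 and 129 CPM in the control group, 155, 186 and 164 in the D-gal/LPS group and 211, 283 and 233 in the WZB group. It rose by 0.36 ± 0.11 and by 0.53 ± 0.11 (edgeR, BH-adjusted p = 0.00901 and 0.00235). Slc22a28, of the same cluster, rose by 0.85 ± 0.18 and 0.67 ± 0.17 (edgeR, BH-adjusted p = 0.00113 and 0.0108). Its rise with WZB was not called without D-gal/LPS replicate 1 (edgeR, BH-adjusted p = 0.0548). As paralogs, Slc22a28 and Slc22a30 may share reads to a degree that the deposited counts do not show.

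Slc10a2, known as the ileal bile salt carrier and also found in cholangiocytes, stood at 7.19, 4.102 and 7.19 CPM in the control group, 11.5, 8.96 and 8.03 in the D-gal/LPS group and 15.8, 16.7 and 18.0 in the WZB group. It rose by 0.62 ± 0.21 after D-gal/LPS (edgeR, BH-adjusted p = 0.021) and by 0.82 ± 0.20 with WZB (edgeR, BH-adjusted p = 0.00847), of which the first was lost without control replicate 2 or D-gal/LPS replicate 1 (adjusted p 0.0716 to 0.105) and the second without D-gal/LPS replicate 2 (adjusted p = 0.0544). Slc10a5, an orphan member of that family expressed in liver, rose by 0.94 ± 0.15 after D-gal/LPS (edgeR, BH-adjusted p = 0.000134). Of the 5 transporters of organelles, 1 rose and 3 fell after D-gal/LPS, and 2 rose with WZB. Among all tested genes, 29.1% rose and 29.3% fell after D-gal/LPS, and 13.8% rose with WZB. Abcb6, a porphyrin-linked transporter, rose by 0.49 ± 0.12 with WZB from 38.4 ± 2.79 CPM (edgeR, BH-adjusted p = 0.00682), a call lost without D-gal/LPS replicate 2 (adjusted p = 0.0741).

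Genes on related pathways were taken as lists, and their counts stand beside the shares over all tested genes given above. Of 18 genes of bile acid synthesis, 4 rose and 7 fell after D-gal/LPS, and 9 rose with WZB against D-gal/LPS, with median log2 fold changes of -0.17 and 0.43. Cyp7a1, the rate-limiting enzyme, stood at 250.7, 177 and 242 CPM in the control group, 42.8, 30.8 and 31.3 in the D-gal/LPS group and 35.5, 31.0 and 28.0 in the WZB group. D-gal/LPS and WZB libraries overlapped and lay below every control library. It fell by 2.67 ± 0.17 after D-gal/LPS (edgeR, BH-adjusted p = 3.41e-07) and stood at -0.16 ± 0.17 with WZB (edgeR, BH-adjusted p = 0.539). Cyp8b1, which sets cholic acid output, and Baat, which conjugates bile acids, changed by -2.23 and -1.51 (edgeR, BH-adjusted p = 0.00011 and 1.77e-06). Akr1d1, Cyp27a1 and Slc27a2, further enzymes of the route, rose with WZB by 1.12 ± 0.10, 0.73 ± 0.09 and 0.63 ± 0.08 (edgeR, BH-adjusted p = 9.89e-06, 7.1e-05 and 8.77e-05).

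Of 26 tested nuclear receptors and hepatocyte factors, 2 rose and 21 fell after D-gal/LPS, with a median of -1.30, and 3 rose and 2 fell with WZB against D-gal/LPS, with a median of -0.07. Nr1h4, the bile acid receptor FXR, stood at 183, 191 and 123 CPM in the control group, 27.3, 33.2 and 33.0 in the D-gal/LPS group and 36.4, 42.5 and 40.6 in the WZB group, a change of -2.41 ± 0.16 after D-gal/LPS (edgeR, BH-adjusted p = 1.98e-07). Its target Nr0b2, the repressor SHP, fell by 2.06 ± 0.26 (edgeR, BH-adjusted p = 1.33e-05). Both were named after their values were seen. Rxra, the shared partner of such receptors, Cebpa and Foxa3 changed by -1.83, -2.92 and -2.71 (edgeR, BH-adjusted p = 8.37e-10, 1.2e-09 and 1.05e-08). With WZB, the risen genes included Nr1i2, the xenobiotic receptor PXR, and Hnf4a, by 0.73 ± 0.12 and 0.44 ± 0.07 (edgeR, BH-adjusted p = 0.000514 and 0.000527). Against control, 19 of the 26 were lower with WZB, and the 7 uptake carriers were higher.

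Of 20 genes that place pumps in the canalicular membrane, 5 rose and 8 fell after D-gal/LPS, and 5 rose and 2 fell with WZB, with medians of -0.04 and 0.08. Msn and Ezr, which link membranes to actin and occur widely in non-hepatocytes, rose by 4.08 ± 0.10 and 2.88 ± 0.14 (edgeR, BH-adjusted p = 4.63e-12 and 1.02e-09) and changed by -0.95 and -0.93 with WZB (edgeR, BH-adjusted p = 1.34e-05 and 0.000169). The scaffold Slc9a3r1 fell by 1.20 ± 0.10 after D-gal/LPS (edgeR, BH-adjusted p = 2.74e-07). Tmem30a, partner of the lipid flippase that protects the canalicular membrane, rose by 0.53 ± 0.09 and by 0.39 ± 0.09 with WZB (edgeR, BH-adjusted p = 0.000167 and 0.00523).

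Among all tested genes, 32.6% were higher and 28.0% lower with WZB and D-gal/LPS than in control. Livers given both differed from control in 44 of the 60 tested transporter genes. The 6 lower ones included Slc22a23, Abca1 and Slc22a5, at -2.50 ± 0.12, -1.04 ± 0.08 and -0.88 ± 0.13 (edgeR, BH-adjusted p = 1.79e-09, 1.49e-07 and 8.16e-05). The higher ones included each uptake carrier, from 0.47 ± 0.09 for Slco2b1 to 1.23 ± 0.11 for Slco1b2 (edgeR, BH-adjusted p = 0.000344 and 6.47e-07). Abcc2, Slc47a1 and Abcg5, which had fallen after D-gal/LPS, stood at 0.048 ± 0.10, 0.20 ± 0.09 and -0.31 ± 0.13 from control (edgeR, BH-adjusted p = 0.699, 0.0696 and 0.0548). Slc47a1 passed as higher with a replicate block or without WZB + D-gal/LPS replicate 1 (adjusted p = 0.0452 and 0.0219). Abcg5 passed as lower with DESeq2, DESeq2 size factors, total counts, no filter, a filter of 5 CPM and only the groups compared (adjusted p 0.00136 to 0.0457). It also passed without control replicate 2, D-gal/LPS replicate 1 or D-gal/LPS replicate 2 (adjusted p 0.00831 to 0.0458).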

How the data were processed

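The authors deposited a table with a whole-number read count and an FPKM value per gene and library, per the file headers. The reference was GRCm38.p4 (mm10), with R 4.1.2 and limma among the tools, per the submitters' processing notes. The sources used here do not give the aligner, the counting program or strandedness. A further 3 value columns matched no labelled sample and were not used. The deposited counts were fitted with edgeR 4.0.16 under R 4.3.3. The filter filterByExpr kept 13583 of 34745 genes, and 1 robust quasi-likelihood fit took all 9 libraries in their 3 groups, with TMM scaling and no block, which left 6 residual degrees of freedom. P-values were adjusted by Benjamini-Hochberg over the tested genes and called under 0.05. The approximate standard error is the absolute log2 fold change over the root of the F statistic. CPM values were computed from the deposited counts, and the deposited FPKM values gave levels between genes and ratios. Transporter levels rest on 15072509 to 18106895 counts per library, and intervals from counts cover counting error only. Within a group, libraries correlated at 0.981 to 0.987 and differed by more than counting noise. Transporter genes, roles and lists were chosen with earlier results of these data known. Values per library were given for a fixed set of canonical transporters, the 10 further members with the smallest adjusted p per comparison and a mean of at least 1 CPM and the 3 leading genes of each related list. A part of these is printed, some genes of these lists are not reported here, and Abca5, Abca6, Abca9, Slc10a2, Slc10a5, Slc22a28, Slc22a3, Slc22a15, Abcc6, Nr1h4 and Nr0b2 were named after their values were seen. Alternatives were DESeq2 1.42.0 and its size factors, upper quartile and total-count scaling, other filters, fits of 2 groups, a replicate block and leaving out each library.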

Additional observations from a re-analysis of the deposited data

How the results depend on the processing

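The counts of higher and lower transporter genes stayed within 1.5 times of the reported values under every alternative, except the lower genes of WZB against control, which were 10 with total counts and 6 as reported. Over all genes, WZB against D-gal/LPS gave 850 higher and 3290 lower with total counts. Leaving out 1 library gave 1246 to 1943 higher, lowest without D-gal/LPS replicate 2, where 34.9% of calls were higher. The rises with WZB of the 6 uptake carriers and 5 canalicular pumps passed the test with total counts too. A replicate block gave 28 higher and 12 lower transporter genes after D-gal/LPS. It gave 21 and 8 for WZB against D-gal/LPS, and 39 and 6 for WZB against control. Of all genes called under the block, 50.1%, 48.6% and 53.7% were higher in these comparisons. Medians of the transporter genes and of all genes were 0.32 and -0.03, 0.24 and -0.02, and 0.73 and 0.08. Calls lost under the block included Abcb11 (adjusted p = 0.0576) and Abca4 after D-gal/LPS and Slc22a27 with WZB, and Slc47a1 was added against control. After D-gal/LPS, Slco1a4 was not called with only the groups compared (adjusted p = 0.0614). Replicate numbers did not pair libraries: deviations of same-numbered libraries correlated at -0.08 to 0.06, and 2 of the 9 libraries were closest to one of their own number. Signs turned in genes that passed no test in their comparison, except Slc27a2 in WZB against control. Their log2 fold changes follow, and the cause was not tested. With DESeq2 size factors, values of the other sign were Slc10a1 0.023 and Akr1d1 0.014 in D-gal/LPS against control, Slco2a1 -0.042, Cebpa -0.024 and Abcc6 -0.046 in WZB against D-gal/LPS, Nr1i2 -0.022 in WZB against control. With a filter of 5 CPM in 3 libraries, values of the other sign were Slc10a1 0.028 and Akr1d1 0.019 in D-gal/LPS against control, Slco2a1 -0.080, Cebpa -0.064, Foxa3 -0.028 and Abcc6 -0.082 in WZB against D-gal/LPS, Abcc2 -0.011 and Nr1i2 -0.053 in WZB against control. With DESeq2, values of the other sign were Slc10a1 0.023 and Akr1d1 0.014 in D-gal/LPS against control, Slco2a1 -0.042, Cebpa -0.024 and Abcc6 -0.046 in WZB against D-gal/LPS, Nr1i2 -0.022 in WZB against control. With only the groups compared, values of the other sign were Slc10a1 0.013 and Akr1d1 0.0036 in D-gal/LPS against control, Abcc2 -0.032 and Nr1i2 -0.075 in WZB against control. With upper quartile factors, values of the other sign were Abcg8 -0.053 in D-gal/LPS against control, Abcb1a 0.028 in WZB against D-gal/LPS. With total counts, values of the other sign were Abcg8 -0.052 in D-gal/LPS against control, Slco2a1 -0.18, Cebpa -0.17, Foxa3 -0.13, Abca6 -0.017 and Abcc6 -0.19 in WZB against D-gal/LPS, Slc47a1 -0.052, Abcc2 -0.21, Slc27a2 -0.058, Nr1i2 -0.24, Hnf4a -0.12 and Abcc6 -0.028 in WZB against control. Leaving out 1 library turned further signs, and the lowest and highest values follow. In D-gal/LPS against control these were Slc10a1 -0.076 to 0.055, Slco2b1 -0.085 to 0.021, Abcg8 -0.21 to 0.16, Abcb6 -0.17 to 0.063, Akr1d1 -0.12 to 0.064 and Slc22a3 -0.55 to 0.018. In WZB against D-gal/LPS these were Abcb1a -0.32 to 0.29, Abcb1b -0.50 to 0.092, Slco2a1 -0.073 to 0.082, Cyp7a1 -0.33 to 0.016, Cebpa -0.21 to 0.14, Foxa3 -0.15 to 0.29 and Abcc6 -0.045 to 0.021. In WZB against control these were Abcc2 -0.028 to 0.094 and Nr1i2 -0.100 to 0.074. Low counts limit Slc51b, Abcb1a, Abcb1b, Slc10a6 and the members whose mean reached the filter level in 1 group.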

Other observations

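Among the members with too few reads for a test, Abcg4, a sterol transporter of the Abcg1 type known mainly from brain, had 6 counts in control, 1 after D-gal/LPS and 23 with WZB, summed over 3 libraries. Slc22a29, from the mouse organic anion carrier cluster, had 6, 2 and 22. Slco4c1, a kidney organic anion carrier, had 0, 10 and 4, and Abca13 had 0, 6 and 5. Highest in control were Abca14, at 27, 19 and 12, and Slc22a17, at 27, 17 and 20. None of these genes was compared.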
